A study of Mus musculus with 8 samples.

Results

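Thrombin, the receptors that it cleaves and the factors that make, use or restrain it were followed through 10 genes in common myeloid progenitors (CMPs) of young and old mice. The genes were F2, F2r, F2rl1, F2rl2, F2rl3, F3, F5, F10, F13a1 and Thbd, and every non-control probe that carried 1 of these names was taken, which gave 15 of the 55681 probes on the array and 10 of its 34797 gene names. The set was put together with the old-against-young result for F2 already known, so it was selected on the old minus young differences measured on these arrays, which are given as a description without a test. Of the 15 probes, 13 probes from 9 genes passed the filter on dim signal, and the F2rl1 probe and 1 of the F3 probes were well above background on no array. CMPs are bone marrow cells that give rise to granulocytes, monocytes, erythroid cells and megakaryocytes. They were sorted as Lin-, cKit+, Sca-1-, CD34+ and FcγRlow cells from untreated wildtype C57BL/6J mice, and the study used both sexes. There were 4 arrays from young mice (replicates 3 to 6) and 4 from old mice (replicates 2 to 5), with 1 array per sample. The sample labels give ages of 2 to 3 months and 22 to 24 months, and the series text gives 3 to 4 months and 22 to 26 months. Nothing in the labels says that each array was a separate animal, so p-values measure the spread between these samples. The paper describes 3 mice per age (3 and 22 months), each analysed on its own, but does not name the arrays.

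Thrombin is the serine protease that turns fibrinogen into fibrin at the end of the coagulation cascade. It is released from prothrombin, the product of F2, by activated factor X (F10) with activated factor V (F5) as its cofactor, and the cascade is started when tissue factor (F3) binds factor VII. Thrombin also activates factor XIII, whose catalytic A subunit (F13a1) crosslinks fibrin, and when bound to thrombomodulin (Thbd) it activates the anticoagulant protein C instead. Cells sense thrombin through protease-activated receptors, G protein-coupled receptors that are switched on by cleavage of their own N terminus. PAR1 (F2r), PAR3 (F2rl2) and PAR4 (F2rl3) are cleaved by thrombin, whereas PAR2 (F2rl1) is mainly a receptor for trypsin-like proteases. Most prothrombin and factor X in plasma comes from the liver. Mouse platelets, the products of megakaryocytes, carry PAR3 and PAR4, and factor XIII-A is made by megakaryocytes and by cells of the monocyte lineage.

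The probes behind the results are short DNA sequences of 60 bases, shown so that a reader can see what each signal was read with. The accession attached to each of the 15 probes matched the same gene symbol in RefSeq. The first 30 bases are printed for most of them, and the whole probe for 1 of the F10 and 1 of the F13a1 probes. Positions are those of the mouse build mm9 given in the files. No annotation of that build was used here, so whether a probe lies in coding or untranslated sequence is not stated.
F2, A_55_P1960683, chr2:91465510-91465569, minus strand: cctacactatggaatcctcattgcaaaatc
F2r, A_52_P344290, chr13:96371902-96371961, minus strand: tttccaaatactgtagagtcgcttccacga
F10, A_51_P174961, chr8:13055774-13055833, plus strand: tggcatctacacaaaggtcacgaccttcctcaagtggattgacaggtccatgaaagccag
F10, A_55_P2172934, chr8:13056223-13056290, plus strand: agAAAGAAAGAAAGAAAGAAAGAAAGAAAG
F13a1, A_51_P507801, chr13:36959214-36959273, minus strand: ctggtttacttctaagtcattgataggttc
F13a1, A_55_P2186125, chr13:37063829-37063888, minus strand: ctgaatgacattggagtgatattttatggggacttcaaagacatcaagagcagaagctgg
The capitals in the F10 probe A_55_P2172934 mark a tandem repeat of the letters AAAG. All 60 bases of that probe are A or G, which holds for 23 of the 55681 probes on the array. Whether the signal of this repeat comes from F10 transcripts was not tested.

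Promoters were read from RefSeq on the build GRCm38.p6, whose positions are not those of the probes. The table held 9 promoters for 8 of the 10 genes. In the 250 bases before each start, the letters AGATAA or TGATAA, bound by GATA factors, and GTTAAT or GTTAAC, part of the site of the liver factor HNF1, were searched on both strands. A GATA match was present in 2 of the 9 promoters, those of F2rl2, 95 bases before the start, and F2rl3, 157 bases before it, and in 16.6% of all 32851 promoters of that length. No promoter of the set held the HNF1 half-site, which was present in 8.76% of all promoters. The promoters of F2 and of both receptors with a match are shown, with matches in capitals.
F2, chr2:91636458-91636707, minus strand: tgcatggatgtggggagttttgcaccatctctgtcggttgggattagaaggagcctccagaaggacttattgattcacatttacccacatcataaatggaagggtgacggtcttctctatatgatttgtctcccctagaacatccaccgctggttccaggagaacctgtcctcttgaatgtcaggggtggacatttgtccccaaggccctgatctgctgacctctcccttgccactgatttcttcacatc
F2rl2, chr13:95696670-95696919, plus strand: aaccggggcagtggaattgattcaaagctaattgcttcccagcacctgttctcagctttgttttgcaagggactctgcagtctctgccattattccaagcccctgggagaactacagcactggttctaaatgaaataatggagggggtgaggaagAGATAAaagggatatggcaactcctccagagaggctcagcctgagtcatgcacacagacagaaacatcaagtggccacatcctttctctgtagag
F2rl3, chr8:72761409-72761658, plus strand: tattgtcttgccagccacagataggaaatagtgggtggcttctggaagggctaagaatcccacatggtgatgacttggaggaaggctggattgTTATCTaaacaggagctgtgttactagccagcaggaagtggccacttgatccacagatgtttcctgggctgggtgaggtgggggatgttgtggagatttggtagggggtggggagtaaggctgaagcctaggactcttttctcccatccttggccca

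Signals are given as log2 of the background-corrected intensity minus the 75th percentile of the array, so that 0 is the intensity below which 75% of the non-control spots lay. Differences between the ages are read at 1 probe at a time. Levels of different probes are set side by side only to call a signal bright or dim, to pick the brightest probe and to sum a list. The 75th percentile was between 352 and 565 intensity units on young arrays and between 290 and 518 on old arrays, between 55.7% and 63.2% of probes were well above background, and no spot was saturated. Over all 33455 tested probes the median old minus young difference was -0.02. A gene was called when 1 of its probes had a fold of at least 1.5 and, in limma, a Benjamini-Hochberg adjusted p under 0.05. Of the 23163 genes tested, 48 (0.207%) were called higher and 10 (0.0432%) lower in old CMPs. With quantile normalization these numbers were 53 and 3. The call made for F2 belongs to the values by which the set was selected and is no result here. The old arrays all lay above the young arrays at 3 of the 13 tested probes of the set and all below at 3, where over all tested probes the shares were 2.85% and 1.58%. Nothing is read from these counts, since the same differences chose the set. RNA was measured from a bulk of sorted cells, in which fewer cells of a type and less RNA per cell cannot be told apart.

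**Figure D1:**
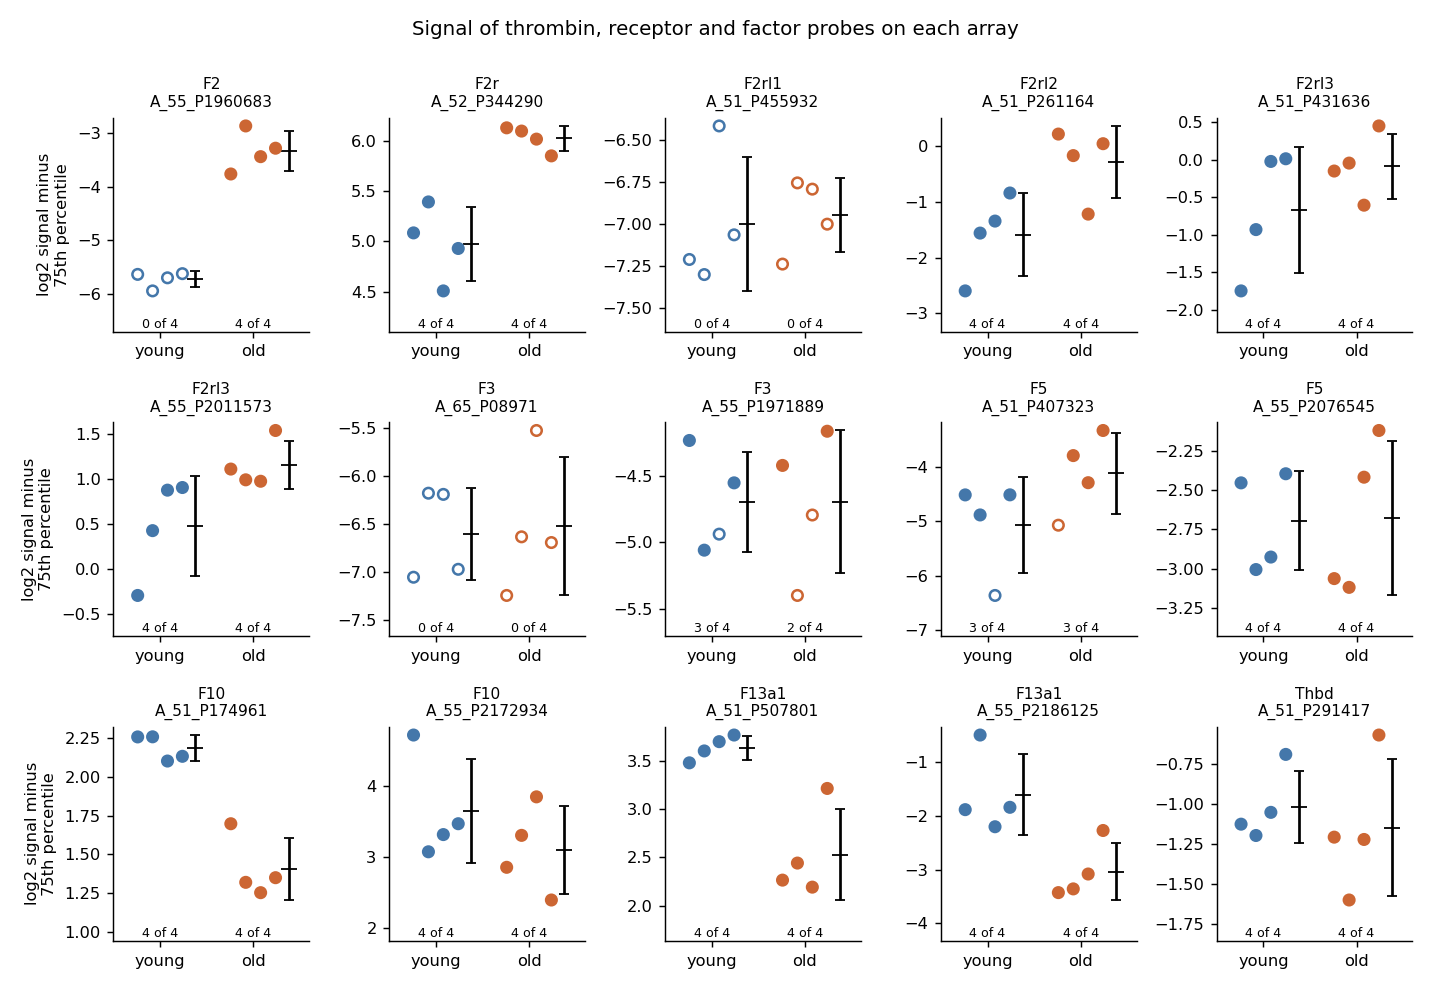
Log2 signal, relative to the 75th percentile of each array, at each of the 15 probes, 1 panel per probe with its own axis, for 4 young (blue) and 4 old (orange) arrays. Filled points were well above background and open points were not, the number of filled points stands under each group, and the bars show the mean ± SD. F2 was filled on old arrays alone, and the ages did not overlap at F2, F2r, 1 of the F2rl3 probes, 1 of the F10 probes and both F13a1 probes.

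F2, the gene of prothrombin, gave a reading well above background on the 4 old arrays but not on a single young one. Its log2 signal was -5.63, -5.94, -5.69 and -5.62 in young replicates 3 to 6, against -3.77, -2.88, -3.45 and -3.29 in old replicates 2 to 5. The lowest old array lay above the highest young array. The means were -5.72 ± 0.15 (SD, n = 4) and -3.35 ± 0.37 (SD, n = 4). In intensity units, the young arrays read between 6.81 and 10.5 and the old arrays between 26.6 and 48.2. The signal was dim at both ages. Because young CMPs gave no reading well above background, the fold is given only as a nominal lower bound. With the main background correction the bound was 5.17-fold. For it, a young array took its own F2 value or, where that was lower, the dimmest signal well above background on it. Only young replicate 6 was raised in this way, from -5.615 to -5.609. On the other young arrays F2 read above the dimmest signal well above background, which is thus no detection limit for this probe. The bound is therefore close to the fold of 5.18 between the mean signals and is no guaranteed minimum. With normexp background correction, which adds an offset of 50 to every intensity, the bound was 1.55-fold. Its size therefore depends on the background correction, and 5.17-fold belongs to the main one alone. The bound was 4.52-fold between the arrays of slide 1 and 5.93-fold between those of slide 2, each slide holding 2 young and 2 old arrays.

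The genes beside F2 on chromosome 2 were examined to see whether they differed too. Within 250 kb of the F2 probe lay 9 probes of 8 other names, of which 7 probes of 6 genes were tested. No gene was called by limma, and none had an unadjusted p under 0.05. Ckap5, which encodes a microtubule polymerase, had the nearest probe, 4.77 kb away. It read 2.61 in young and 2.10 in old CMPs, a difference of -0.50 (SE 0.23, adjusted p = 0.81 by limma). Zfp408, at 18.3 kb, differed by -0.05 (SE 0.21), Arhgap1, a GTPase-activating protein, by 0.02 (SE 0.22) and Atg13, an autophagy factor, by -0.18 (SE 0.20). Harbi1 differed by -0.13 (SE 0.25) and 0.00 (SE 0.21) at its 2 probes and Gm13770 by 0.32 (SE 0.29). Lrp4, well above background on 2 young arrays and no old array, and an unnamed probe were not tested.

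**Figure D2:**
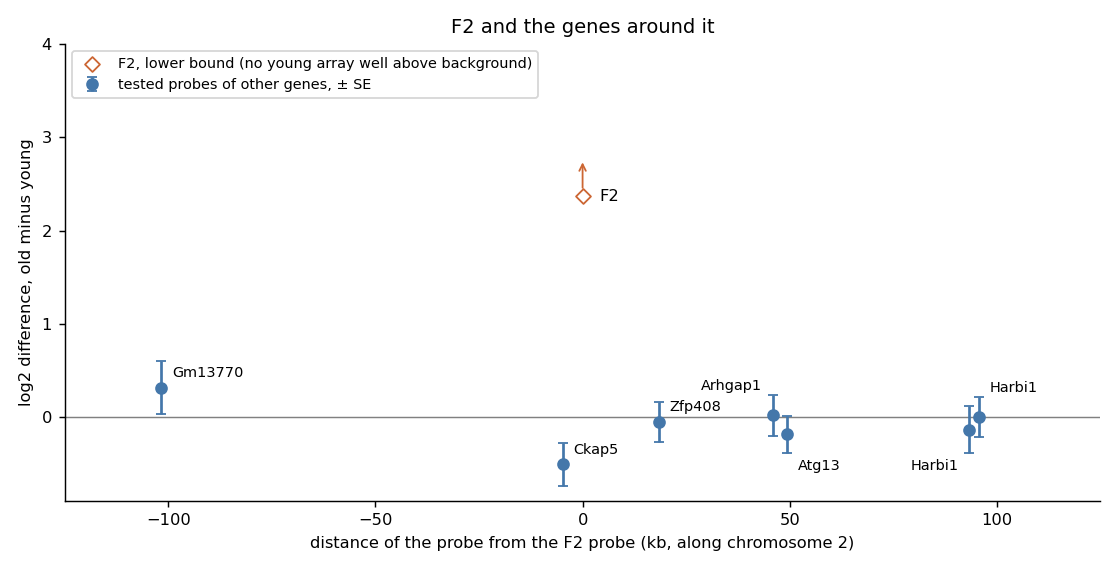
Old minus young log2 difference (± SE from limma) of the 7 tested probes around F2, against the distance from the F2 probe in kb, with the lower bound for F2 as a diamond with an arrow. The bound, which is nominal, stands at 2.37, and the other probes lie between -0.50 and 0.32.

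The genes whose tested probe was most like F2 over the 8 arrays were Il17rc (Pearson r = 0.99), Hoxb5 (r = 0.99), 2610034B18Rik (r = 0.98), Evc2 (r = 0.97) and Hoxb2 (r = 0.97). All 8 points share the contrast between the ages, so these correlations are a description. When values were taken as deviations from the mean of their age, the correlation with F2 was 0.91 for 2610034B18Rik and 0.77 for Il17rc. It was 0.74 for Hoxb5, 0.50 for Hoxb2 and 0.30 for Evc2, which is a component of the Hedgehog pathway at the primary cilium. The 5 genes were picked on these same values, and no young F2 value was well above background. These correlations are therefore a description too. Il17rc is a subunit of the interleukin-17 receptor, and Hoxb2 and Hoxb5 are homeobox transcription factors.

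Among the receptors, F2r (PAR1) was bright at both ages. It read 5.09, 5.39, 4.51 and 4.93 in young replicates 3 to 6, against 6.13, 6.10, 6.02 and 5.85 in old replicates 2 to 5. The ages did not overlap, and the old arrays lay closer to each other (SD 0.12) than the young ones (SD 0.37). The mean was 4.98 in young and 6.02 in old CMPs, a difference of 1.04 (SE 0.21) or a fold of 2.06. It was 0.83 on slide 1 and 1.25 on slide 2. Here and below, such differences of the set describe these 8 arrays.

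F2rl2 (PAR3), a receptor that in mouse platelets helps thrombin to cleave PAR4, read -2.60, -1.56, -1.34 and -0.84 in young replicates 3 to 6. It read 0.22, -0.17, -1.22 and 0.04 in old replicates 2 to 5. The old replicate 4 lay within the young range and the other 3 old arrays above it. The difference was 1.30 (SE 0.41), a fold of 2.47, and the spread within an age (SD 0.74 young, 0.65 old) was wide.

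F2rl3 (PAR4), the receptor through which thrombin activates mouse platelets, had 2 probes on chromosome 8, chr8:75286711-75286770 and chr8:75287099-75287158. At A_55_P2011573 it read -0.29, 0.43, 0.88 and 0.91 in young replicates 3 to 6, against 1.11, 0.99, 0.98 and 1.54 in old replicates 2 to 5. The ages did not overlap there, although young replicates 5 and 6 came close to the lowest old arrays, and the difference was 0.68 (SE 0.28). At A_51_P431636 the young arrays ranged from -1.75 to 0.01 and the old arrays from -0.60 to 0.45, so the ages overlapped, with a difference of 0.58 (SE 0.40). Without young replicate 3, the lowest array at both probes, the differences were 0.42 and 0.23. Over the 8 arrays the probes moved together (r = 0.94). At both, the difference was larger on slide 1 (0.98 and 0.96) than on slide 2 (0.38 and 0.21).

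F2rl1 (PAR2) was well above background on none of the 8 arrays, so neither a level nor a fold is given. Its probe lies 89.9 kb from that of F2r on chromosome 13, with the F2rl2 probe on the other side of F2r. Of these 3 neighbouring receptor genes, F2r and F2rl2 were thus measured on every array and F2rl1 on none.

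Tissue factor, the initiator of the cascade, was at the edge of detection. The F3 probe A_65_P08971 was well above background on no array. The other, A_55_P1971889, was so on 3 young and 2 old arrays, with means of -4.70 ± 0.37 (SD, n = 4) and -4.70 ± 0.53 (SD, n = 4), a difference of 0.00 (SE 0.30).

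The probes of F5, the cofactor of factor X, gave different pictures. A_55_P2076545, measured on all arrays, read between -3.01 and -2.40 in young and between -3.12 and -2.12 in old CMPs, a difference of 0.02 (SE 0.27). A_51_P407323 was well above background on 3 arrays of each age and differed by 0.95 (SE 0.48). That value was 0.02 on slide 1 and 1.88 on slide 2, and it was 0.52 without young replicate 5. The lowest reading, on young replicate 5, was not well above background. Over the 8 arrays the probes had r = 0.49.

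F10, which encodes the protease that cuts prothrombin, was lower on old arrays at the probe A_51_P174961. It read 2.26, 2.26, 2.10 and 2.13 in young replicates 3 to 6, against 1.70, 1.32, 1.25 and 1.35 in old replicates 2 to 5. All old arrays lay below all young arrays. The difference was -0.78 (SE 0.17), which made young signal 1.72-fold that of old, and it was -0.78 on either slide. The repeat probe A_55_P2172934 read 4.72, 3.07, 3.32 and 3.47 in young and 2.86, 3.31, 3.85 and 2.40 in old replicates. There the ages overlapped, with a difference of -0.54 (SE 0.41) and a correlation with the other probe of 0.35. The difference was -0.19 without young replicate 3 and -0.31 without old replicate 5.

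F13a1, the catalytic subunit of factor XIII, was lower on old arrays at both probes. At A_51_P507801 it read 3.48, 3.60, 3.70 and 3.77 in young replicates 3 to 6, against 2.26, 2.44, 2.19 and 3.21 in old replicates 2 to 5. The young arrays lay close together (SD 0.13), and the old replicate 5 came nearest to them. The difference was -1.11 (SE 0.24), with young signal 2.16-fold that of old. At A_55_P2186125 it read -1.89, -0.50, -2.21 and -1.84 in young and -3.43, -3.36, -3.08 and -2.28 in old replicates. The ages did not overlap there either, and the difference was -1.43 (SE 0.39), or 2.69-fold, which was 1.72-fold with normexp background correction. That difference was -2.06 on slide 1 and -0.79 on slide 2. Without young replicate 4, the highest young array at this probe, it was -1.06. The probes had r = 0.82 over the 8 arrays, and old replicate 5 was the highest old array at both.

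Thbd, the anticoagulant cofactor that binds thrombin, read -1.13, -1.20, -1.05 and -0.69 in young replicates 3 to 6. In old replicates 2 to 5 it read -1.21, -1.60, -1.22 and -0.57. The ages overlapped, and the difference of -0.13 (SE 0.24) was smaller than the spread within an age.

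**Figure D3:**
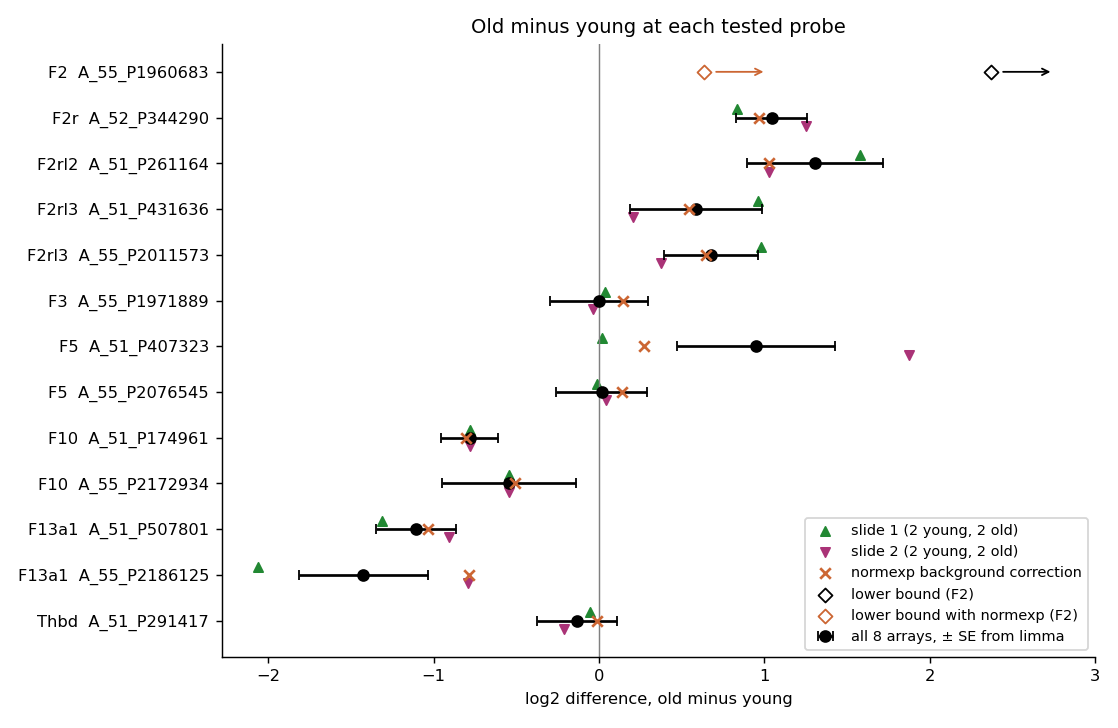
Old minus young log2 difference at each of the 13 tested probes over all 8 arrays (black, ± SE from limma), within each slide (triangles) and with normexp background correction (crosses). For F2 the diamonds with arrows mark nominal lower bounds, 2.37 and, with normexp, 0.64. F2r, F2rl2 and F2rl3 lie above 0 and F10 and F13a1 below 0.

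The other genes of the system were read from 5 lists with 62 genes, all present on the array, of which 45 were tested. None was called higher or lower by limma. At an unadjusted p under 0.05, 4 (8.89%) were higher and 1 (2.22%) lower in old CMPs, where over all tested genes the shares were 4.67% and 3.42%. The difference was above 0 for 28 of the 45 genes, with a median of 0.09. The percentages are given as counts and were not tested as a set.

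Of 13 other procoagulant genes, 5 were tested, with a median of -0.29. Vwf, the carrier of factor VIII and a bridge between platelets and collagen, read 4.16, 3.25, 4.01 and 4.23 in young replicates 3 to 6, against 4.82, 4.95, 5.18 and 5.22 in old replicates 2 to 5. The ages did not overlap, but the difference of 1.13 (SE 0.24) did not pass the test (adjusted p = 0.15 by limma). F7, the partner of tissue factor, has probes 20.5 kb from F10 on chromosome 8. Like F10 it read lower in old CMPs, by -1.04 (SE 0.24, adjusted p = 0.17 by limma) and -1.28 (SE 0.48, adjusted p = 0.61 by limma) at its 2 probes, which did not pass the test. F9, a vitamin K-dependent protease that activates factor X, differed by -0.70 (SE 0.31, adjusted p = 0.79 by limma) and Klkb1, plasma prekallikrein, by 0.04 (SE 0.53). F8, F12, F13b and Fgg were well above background on no array.

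All 6 genes that modify or export vitamin K-dependent and related factors were tested, and all 6 were well above background on every array, with a median difference of 0.23. Ggcx, the carboxylase that prothrombin and factor X need, differed by 0.40 (SE 0.20, adjusted p = 0.88 by limma). Mcfd2, a cargo receptor subunit for factors V and VIII, differed by 0.32 (SE 0.23) and its partner Lman1 by -0.01 (SE 0.18). Vkorc1l1, a vitamin K reductase, differed by 0.09 (SE 0.23). None of the 6 passed the test, and none had an unadjusted p under 0.05.

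Of 13 anticoagulant genes, 9 were tested, with a median of 0.14. Serpine2 (protease nexin-1), an inhibitor of thrombin, read -0.51, -0.71, -0.23 and -0.01 in young replicates 3 to 6, against 0.89, 0.25, -0.05 and 1.27 in old replicates 2 to 5. The ages overlapped at a single old array, and the difference of 0.95 (SE 0.30) did not pass the test (adjusted p = 0.43 by limma). Serpinc1, antithrombin, differed by 0.54 (SE 0.39), Proc, protein C, by -0.38 (SE 0.21) and Proz, protein Z, by -0.36 (SE 0.57). In the fibrinolysis list, 5 of 10 genes were tested, with a median of 0.24. Cpb2, a thrombin-activated carboxypeptidase that slows fibrinolysis, differed by -0.35 (SE 0.35). S100a10 and Anxa2, which together bind plasminogen at the cell surface, differed by 0.26 (SE 0.18) and -0.09 (SE 0.23).

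All 20 genes of the signalling path behind the thrombin receptors were tested and measured on every array, with a median of 0.05. The 2 with the largest differences were Arhgef12, a guanine nucleotide exchange factor activated by G proteins of the G12 family, and Prkca, protein kinase C alpha. Arhgef12 read -0.69 in young and 0.31 in old CMPs (SE of the difference 0.25, adjusted p = 0.24 by limma), and Prkca differed by 0.97 (SE 0.21, adjusted p = 0.15 by limma). The ages overlapped at neither gene. Prkca read between 0.42 and 1.10 in young and between 1.55 and 2.03 in old CMPs. Neither passed the test. At the other end, the protein kinases Rock1 and Rock2 differed by -0.61 (SE 0.45) and -0.59 (SE 0.61).

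**Figure D4:**
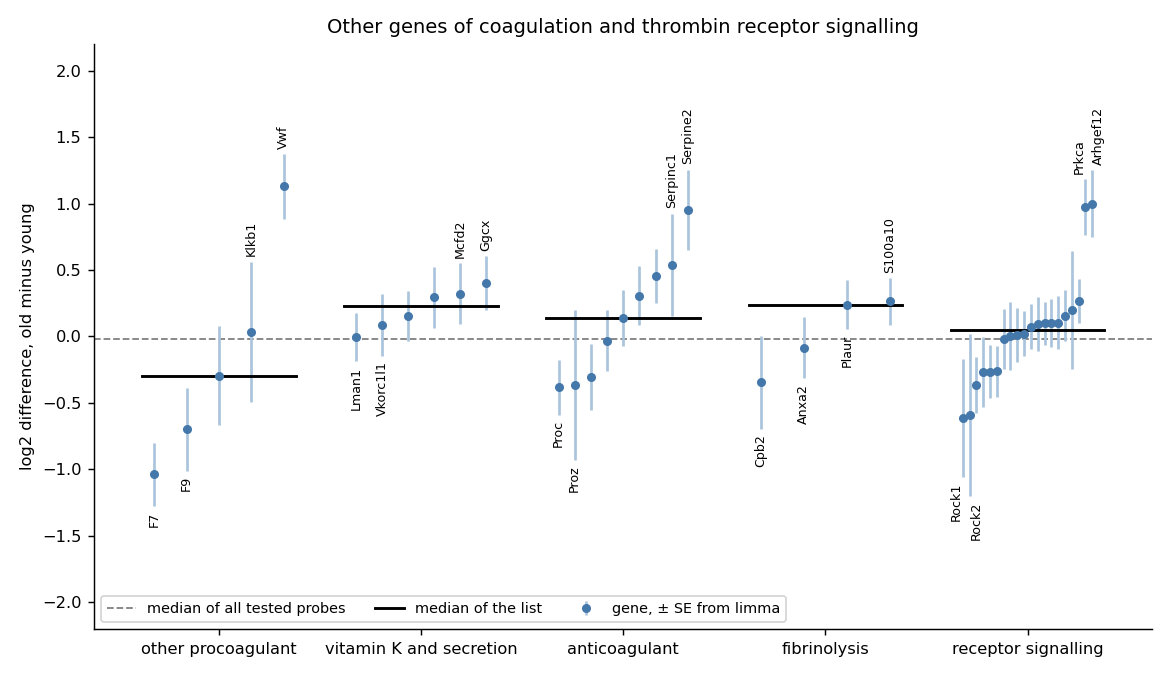
Old minus young log2 difference (± SE from limma) of all but 1 of the 45 tested genes in 5 lists, each gene by its brightest tested probe, with the median of each list (black) and of all tested probes (dashed, -0.02). The outermost genes drawn for each list are named, the differences lie between -1.04 (F7) and 1.13 (Vwf), and no gene was called.

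The identity of the cells was read from marker lists. Kit, Cd34, Fcgr3, Fcgr2b and also Ly6a, the gene of Sca-1 that the gate excludes, were well above background on all 8 arrays. None of them was called, and 4 of the 5 differences were below 0, with a median of -0.36. Ly6a differed by -0.73 (SE 0.23), without overlap of the ages. It was the only 1 of these genes lower at an unadjusted p under 0.05 by limma, against 3.42% of all tested genes. In the list of lineage markers, Ptprc, Itgam, Cd4 and Cd3e were above background on all arrays, and none of the 6 tested was called. Itgam had a mean log2 signal of 4.90 in young and 5.15 in old CMPs. Of the 6 differences, 5 were below 0, with a median of -0.27. Only Ptprc, at -0.60 (SE 0.25), was lower at an unadjusted p under 0.05 by limma. Liver is the main source of plasma prothrombin. Of its 9 markers on the array, Alb and Ttr were well above background on no array, 4 were tested and none was called. The summed signal of the liver list ranged from 4.84 to 8.84 in young and from 6.06 to 6.94 in old CMPs, in units of the array's 75th percentile. It was set mostly by Apoa2 (mean log2 2.56 young, 2.58 old).

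Megakaryocyte markers read higher on old arrays, the direction of F2, F2r, F2rl2 and F2rl3, although a single marker was called. F10 (-0.78 and -0.54) and F13a1 (-1.11 and -1.43) went the other way at both of their probes. Factor XIII-A, the product of F13a1, is made by megakaryocytes too. All 14 were tested and all 14 differences were above 0, with a median of 1.14. Gp9, a platelet glycoprotein, was the only one called, and it rose by 1.21 (SE 0.17, adjusted p = 0.033 by limma), while 13 of the 14 were higher at an unadjusted p under 0.05. Over all tested genes these shares were 0.207% and 4.67%. All lists were chosen with earlier results of these data known, so such shares of a list are a description only. Vwf is 1 of these 14 markers and is also counted in the list of other procoagulant genes. Pf4, a chemokine of platelet granules, differed by 1.36 (SE 0.28, adjusted p = 0.13 by limma). The summed signal was 98.5 to 196 in young and 285 to 379 in old CMPs, without overlap. Pf4 was the brightest marker in this sum (mean log2 6.25 young, 7.61 old). The part of the megakaryocyte markers in the differences of F2 and its receptors was not tested. Endothelial markers had 5 of 7 differences above 0, with a median of 0.44, no call and 4 (Tie1, Emcn, Esam and Kdr) higher at an unadjusted p under 0.05 at any of their probes, and the summed signal was 50.1 to 69.1 in young and 50.6 to 73.4 in old CMPs. Kdr is counted through another probe than its brightest, which enters the median and differed by -0.05 (SE 0.20).

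Most granulocyte and monocyte markers read lower on old arrays, the direction of F10, F13a1 and F7, and none was called. Of 9 tested, 7 differences were below 0, with a median of -0.50, and 4 were lower at an unadjusted p under 0.05, against 3.42% of all tested genes. The other two, Lyz2 and Camp, differed by 0.01 and 0.02. Mpo, the peroxidase of neutrophil granules, differed by -0.59 (SE 0.17, adjusted p = 0.36 by limma). The summed signal was 847 to 1142 in young and 594 to 724 in old CMPs, without overlap. This sum is set mostly by Mpo (mean log2 9.18 young, 8.58 old) and Ctsg (7.99 and 7.57), the brightest markers. Macrophage markers had 4 of 4 tested differences below 0, with a median of -0.27 and no call, and C1qa, C1qc, Cd163 and Vcam1 were well above background on no array. The part of these cells in the lower F10 and F13a1 signal was not tested. Erythroid and mesenchymal markers had medians of -0.05 and -0.07, and none was called. At an unadjusted p under 0.05, 1 of 4 tested mesenchymal markers and no erythroid marker was higher, against 4.67% of all tested genes. The mesenchymal marker was Col1a2, which differed by 1.22 (SE 0.27, adjusted p = 0.16 by limma).

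**Figure D5:**
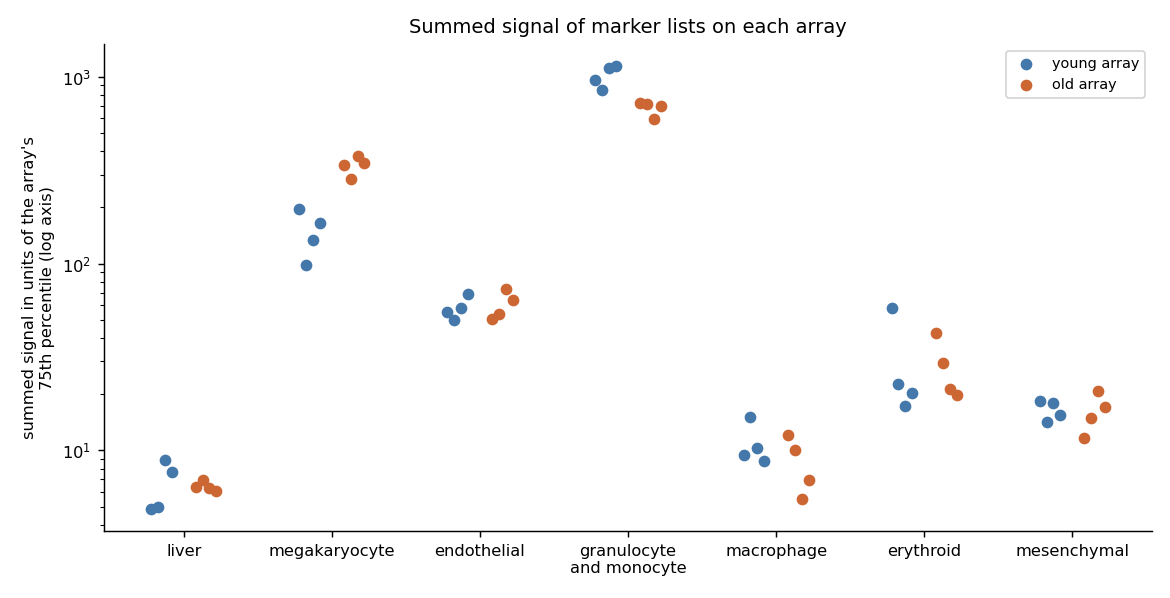
Summed signal of 7 marker lists on each young (blue) and old (orange) array, on a log axis, in units of the array's 75th percentile. A sum is set mostly by the brightest probes of its list. The megakaryocyte list is higher on all old arrays (285 to 379) than on all young arrays (98.5 to 196), the granulocyte and monocyte list is lower (594 to 724 against 847 to 1142), and the liver list overlaps.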

How the data were processed

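RNA of CMPs was hybridized by the authors to 1-colour Agilent mouse arrays (100 ng, Cy3) and scanned, and the scans were read with Feature Extraction 10.7.3.1. The authors deposited for each array the intensity of each spot, corrected for background by that software, with its marks for spots well above background, saturated or outlying. A table of log2 values for the whole series was deposited too, in which each array was shifted to its 75th percentile, lines were centred on their median and probes of a gene can share a line. It was used as an alternative. Groups come from the sample labels. The paper names 3 mice per age without naming arrays, so all 8 arrays were kept.

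Log2 intensity minus the array's 75th percentile over non-control spots was computed. Outlier spots were dropped before spots of a probe were averaged. Probes that 4 or more arrays read as well above background, with a value on all 8, were tested with limma 3.58.1 (R 4.3.3, data.table version 1.17.8), 4 old against 4 young arrays, with Benjamini-Hochberg adjustment over all probes. The step was tried on simulated data with independent normal noise. These held no slide effect and no background floor, so the trial does not bear on dim probes such as F2. The genes of the set and all lists were chosen with earlier results of these data known. Named were every gene of the set, the 2 highest and 2 lowest tested genes of each pathway list by the brightest probe, the tested genes within 250 kb of F2, called markers, and the 5 genes most like F2. Markers named beside these, such as Pf4, Mpo, Ctsg, Apoa2, Col1a2, Kdr, Lyz2 and Camp, were chosen after their values were seen. For 1 pathway gene under this rule no value is reported here. Summed list signals add the linear values of 1 probe per gene, without genes that lack a value on an array. The brightest probes of a list therefore weigh most. Arrays have no sequencing depth, so precision is set by their number and by how far signals stand above background. The alternatives were normexp with an offset of 50, the authors' own log2 values, scaling by quantiles or to the array's median, omitting the filter or asking it of all 8 arrays, the slide or the replicate number as a block, array weights, an intensity trend with robust variances, the methods' t-test (stated for unpaired samples in general, with none stated for arrays) and leaving out each array.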

Additional observations from a re-analysis of the deposited data

How the results depend on the processing

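The count of called genes, 48 higher and 10 lower, became 75 and 21 with normexp background correction, 24 and 2 without a filter on dim probes, 190 and 89 with array weights, 0 and 0 with the methods' t-test after adjustment and 587 and 360 without adjustment, against 773 and 632 for limma without adjustment. The higher count became 77 with an intensity trend and robust variances. The lower count became 3 with quantile normalization, 5 with a shift to the median, 6 with the series table, 6 with the filter on all 8 arrays and 4 with the slide as a block. With 1 array left out and so fewer arrays tested, the counts ranged from 22 to 37 and from 2 to 6. The higher count was lowest without old replicate 3 and without old replicate 5 (22 each), followed by young replicate 4 and old replicate 2 (24 each) and young replicate 5 and old replicate 4 (27 each). The cause of the other changes was not tested.

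The fitted F2 difference of 2.37, which is no estimate of the fold, became 0.64 with normexp, and the nominal bound of 5.17-fold became 1.55-fold. With 1 array left out they ranged from 2.22 to 2.51 and from 4.64 to 5.70. The filter on all 8 arrays left F2 out. Of the pathway lists, 1 gene was called higher with array weights (Prkca) and 1 with the intensity trend (Vwf), and the unadjusted t-test gave 4 higher and 1 lower. No gene beside F2 was called under any alternative. The shift to the median moved the median of all probes by 0.12, and at F2rl1, F3, Thbd and the F5 probe A_55_P2076545 the sign of the difference changed when single arrays were left out. Over the alternatives the list medians ranged from -0.65 to 0.04 (other procoagulant), 0.07 to 0.34 (vitamin K and secretion), 0.01 to 0.30 (anticoagulant), -0.11 to 0.36 (fibrinolysis) and -0.02 to 0.17 (receptor signalling). The sign turned for the procoagulant and fibrinolysis lists without a filter (0.04 and -0.11), and for receptor signalling with normexp (-0.01), with array weights (-0.02) and without old replicate 5 (-0.02), with a value just below 0 without old replicate 2.

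The replicate numbers 3, 4 and 5 occur at both ages. The deviations of arrays with the same number had r = -0.09, -0.14 and 0.15, and 2 of the 6 arrays correlated best with their own number, so the arrays were not treated as paired. With the number as a replicate block, 12 genes were called higher and 1 lower, no gene of the pathway lists and none beside F2.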
